A study of Mus musculus with 8 samples.

Results

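The skin of newborn mice without p53 was compared with control skin on 4 of the 8 arrays of the series, the 2 arrays of pRb+/+;p53-/- skin and the 2 control arrays, over all 22626 probe sets that are not control probe sets. The arrays are Affymetrix-type expression arrays, and all RNA came from whole skin of newborn FVB mice. Each array carried RNA pooled from 3 animals, and it is not stated that replicate arrays came from different pools, so the p-values measure the spread between arrays, which may be technical. The series places the loss of Rb1, Trp53 or both in stratified epithelia, but the labels name neither a Cre driver nor the genotype of the controls. The other 4 arrays held pRb-/-;p53+/+ skin and pRb-/-;p53-/- skin, 2 of each, and they enter here through the shared estimate of the spread and through a second p53 comparison, the doubly deficient skin against skin lacking pRb alone. Whole skin holds epidermis, hair follicles, dermis, fat, muscle, vessels, nerves and immune cells, and fewer cells of a type cannot be told apart from less RNA per cell. The Trp53 transcript was not analysed here.

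The p53 protein is a transcription factor that is stabilised by DNA damage and other stresses. It turns on genes that halt the cell cycle, repair DNA or start apoptosis, among them Cdkn1a, Mdm2, Bbc3, Ccng1, Sfn and Perp, and through Cdkn1a it holds down genes needed for cell division. Newborn skin is a tissue in rapid construction: the epidermis has just completed its barrier, hair follicles are making their first shafts from hair keratins and keratin-associated proteins, and fat, muscle and mast cells are maturing beneath.

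The deposited values are standardized scores. Every probe set has mean 0 and SD 1 over the 8 arrays, so a score says where an array stands among the 8 and not how much RNA was present, and no fold change can be read from it. All differences below are p53-deficient minus control means in these SD units, with the standard error from limma's linear model over all 8 arrays (2 arrays in each group, 4 residual degrees of freedom), and they are bounded: a probe set that spends its variation on one genotype has less left for another.

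Hair shaft genes were lower in skin without p53, mast cell genes higher and white fat genes lower. With limma's ordinary statistic and Benjamini-Hochberg adjustment over all probe sets, 8 probe sets rose (0.0354% of those tested) and 19 fell (0.084%) at an adjusted p under 0.05, and 7 of the 19 were keratin-associated proteins. These calls are few and rest on all 8 arrays: without the first control array 1 higher and 2 lower calls were made, without the second 1 and 4, and without any one of the other 6 arrays none. The moderated form of the same test, which borrows variance across probe sets, called 0, with a smallest adjusted p of 0.318. It made no call in simulated data with known changes either. There, probe sets were independent and few changed, in the p53-deficient arrays alone, which differs from these data. Whether the 0 of the moderated form bears on the calls was therefore not determined. At p under 0.05 before adjustment the counts were 1656 higher (7.32%) and 1638 lower (7.24%) with the ordinary statistic and 1777 and 1619 with the moderated one. In the text that follows, rose and fell are used of adjusted calls, and higher and lower at p under 0.05 before adjustment of the rest.

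The whole arrays stood as follows. The 2 p53-deficient arrays correlated with each other over probe sets at r = 0.34 and the 2 control arrays at r = 0.13, while p53-deficient and control arrays correlated at -0.25 to -0.17. The median difference over all probe sets was -0.16, and it was -0.05 after each array's median was set to 0. Of the 1656 higher probe sets, 471 had the p53-deficient arrays above all 6 others, 677 had the control arrays below all 6 others, 173 had both and 335 neither. Of the 1638 lower probe sets, 542 had the p53-deficient arrays below all others, 527 the control arrays above all others, 101 both and 468 neither. Over all probe sets the p53-deficient arrays stood above the 6 others in 6.01% and below them in 7.8%, and the control arrays in 5.71% and 6.94%. The genes below are given with that position.

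Keratin-associated proteins are the sulphur-rich matrix in which hair keratin filaments are embedded, and their genes are expressed in the hair shaft. Of 29 probe sets for 24 such genes, 23 were lower at p under 0.05 before adjustment and 0 were higher, with a median difference of -1.80 against -0.16 over all probe sets. Of these, 19 probe sets belong to the gene cluster on chromosome 16, where 17 were lower and all 7 adjusted calls lie, with a median of -2.06. The 4 probe sets on chromosome 11 were all lower, with a median of -1.67, and the 4 on chromosome 7 had a median of -0.42 with 1 lower. Members of these families have similar sequences, so neighbouring probe sets may share signal. Because the chromosome 16 genes moved together, their promoters are shown, from 250 bases before to 50 after the start site (RefSeq, GRCm38.p6, 5′ to 3′ on the strand of the gene). Capitals mark the TATA box TATAAA and the LEF/TCF core CTTTGA, searched on both strands. Krtap16-3 lies at chr16:88962824-88963123 on the minus strand, Krtap15 at chr16:88828759-88829058 on the plus strand, Krtap19-3 at chr16:88877989-88878288 on the minus strand, and Krtap6-5 at chr16:89047850-89048149 on the minus strand.
Krtap16-3: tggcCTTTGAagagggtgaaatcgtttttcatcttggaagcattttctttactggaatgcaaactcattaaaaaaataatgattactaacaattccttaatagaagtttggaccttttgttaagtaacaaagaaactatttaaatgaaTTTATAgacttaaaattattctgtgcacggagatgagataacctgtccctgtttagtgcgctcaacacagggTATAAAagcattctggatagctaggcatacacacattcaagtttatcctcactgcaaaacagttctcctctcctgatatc
Krtap15: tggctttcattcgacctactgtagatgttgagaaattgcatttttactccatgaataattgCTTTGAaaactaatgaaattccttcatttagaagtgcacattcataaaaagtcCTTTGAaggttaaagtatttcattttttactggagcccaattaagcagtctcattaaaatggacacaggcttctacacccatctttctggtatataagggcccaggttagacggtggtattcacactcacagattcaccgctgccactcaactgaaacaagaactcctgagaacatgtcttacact
Krtap19-3: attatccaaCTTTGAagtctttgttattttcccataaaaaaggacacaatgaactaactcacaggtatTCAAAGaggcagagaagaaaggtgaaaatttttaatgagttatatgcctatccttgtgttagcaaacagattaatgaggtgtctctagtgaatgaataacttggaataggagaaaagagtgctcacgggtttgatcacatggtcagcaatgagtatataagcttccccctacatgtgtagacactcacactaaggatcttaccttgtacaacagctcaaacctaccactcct
Krtap6-5: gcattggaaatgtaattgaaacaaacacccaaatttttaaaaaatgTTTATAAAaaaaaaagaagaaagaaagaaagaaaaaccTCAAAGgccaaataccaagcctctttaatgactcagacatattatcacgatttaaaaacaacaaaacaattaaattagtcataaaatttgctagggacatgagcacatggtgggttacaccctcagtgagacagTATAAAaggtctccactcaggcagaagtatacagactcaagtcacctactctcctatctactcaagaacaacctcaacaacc

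All of the 4 windows held CTTTGA, the core bound by the Wnt effectors LEF1 and TCF. TATAAA stood at position -30 in Krtap16-3, which also held it on the opposite strand at -102. In Krtap6-5 it stood at -32 and -202, and on the opposite strand at -204. These letters were not in the Krtap15 and Krtap19-3 windows. In Krtap16-3, Krtap15 and Krtap19-3 every CTTTGA was followed by a further A, so that it overlapped TTTGAA, a motif considered below, and in Krtap6-5 it was not. Over the whole list, 28 of 35 promoters held TATAAA (80.0%) and 13 held CTTTGA (37.1%), against 14.2% and 16.2% of 27025 promoters of the same length. A match describes the letters only.

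Krtap16-3 is measured by 2 probe sets. On the first the control arrays scored 1.20 and 1.27 and the p53-deficient arrays -0.89 and -0.93. The control arrays were the highest of all 8 and the groups lay far apart, with a difference of -2.15 ± 0.03 (SE; limma adjusted p = 0.0031). On the second the scores were 1.23 and 1.10 in control skin and -0.77 and -0.84 without p53, and it fell by 1.97 (adjusted p = 0.0214).

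Krtap19-3 scored 1.43 and 1.25 in control skin and -0.85 and -0.85 in p53-deficient skin, a difference of -2.19 ± 0.07 (adjusted p = 0.0214). Krtap19-9b scored 1.26 and 1.23 against -0.74 and -0.80, and Krtap6-5 scored 1.18 and 1.11 against -0.62 and -0.69, each also with an adjusted p of 0.0214. Krtap15 scored 1.22 and 1.20 against -0.74 and -0.95 (difference -2.06 ± 0.08, adjusted p = 0.0224). In each of these genes both control arrays stood above all 6 other arrays, and the pRb-deficient arrays lay between control and p53-deficient skin, as the plot of the called probe sets shows. Among genes with several probe sets, Krtap6-3 was lower on both of its own, by -2.04 and -2.27, without an adjusted call.

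**Figure D1:**
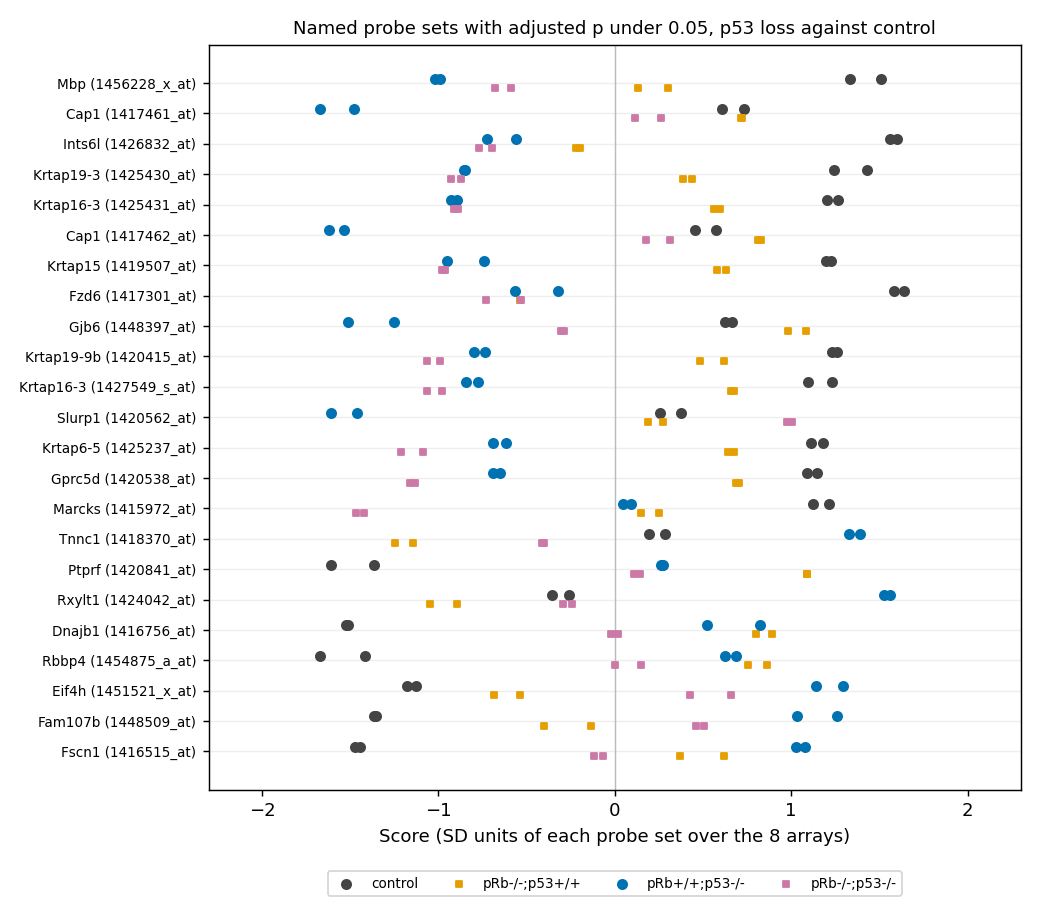
Scores of the 23 probe sets named by rule with an adjusted p under 0.05 in p53-deficient against control skin, one row each, ordered by the difference; each point is 1 array and the horizontal axis is the score in SD units. Control points (dark) lie right of p53-deficient points (blue) for 15 probe sets and left of them for 8, and the points of a pair lie close together.

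Gprc5d, an orphan receptor of the differentiating hair shaft and nail, had one of the smallest adjusted p-values beside Krtap16-3. Its scores were 1.09 and 1.15 in control skin and -0.69 and -0.65 without p53, a difference of -1.79 ± 0.03 (adjusted p = 0.0031). Between skin lacking both proteins and skin lacking pRb alone the same probe set differed by -1.84, with means taken from the other 4 arrays and the same estimate of the spread.

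Hair keratins and root sheath genes, the filaments themselves and the sheath that moulds them, followed. Of 23 probe sets for 23 genes, 21 were lower and 1 higher, with a median of -1.46, and none passed the adjusted threshold. Krt83, a type II hair keratin, scored 1.10 and 1.18 in control skin and -0.67 and -0.56 in p53-deficient skin, a difference of -1.76 ± 0.16 (adjusted p = 0.086). Krt35, a type I keratin of the early hair cortex, scored 0.85 and 0.96 against -0.24 and -0.26 (difference -1.15 ± 0.10, adjusted p = 0.081). Krt34 and Krt32 differed by -1.54 and -1.63. The exceptions were Krt84, higher by 1.67, and Tgm3, the transglutaminase that cross-links the sheath, whose arrays overlapped (difference -0.39); both are named after their values were seen. With the moderated statistic 6 of the 23 were lower at p under 0.05 before adjustment, and leaving out any single array left 20 or 21 with the ordinary statistic.

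The regulators that build the follicle divided in direction. Of 86 probe sets for 50 genes, 18 were lower and 10 higher, with a median of 0.07. The balance depended on the statistic, since the moderated one gave 6 lower and 12 higher, and the lower count was 11 without the first p53-deficient array and 12 without either control array. Hr, the co-repressor whose loss causes hairlessness, scored 0.62 and 0.95 in control and -1.29 and -1.34 in p53-deficient skin on one probe set (difference -2.10 ± 0.16, adjusted p = 0.076), with the p53-deficient arrays lowest of all 8, and differed by -0.62 ± 0.87 on its other. Edaradd, the adaptor of the ectodysplasin receptor, scored 1.06 and 0.79 against -1.19 and -1.39 (difference -2.21 ± 0.14, adjusted p = 0.062). Msx2, a homeobox factor of the hair matrix, differed by -1.16 ± 0.13. These 3 genes were lower without p53 on at least 1 probe set.

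Other follicle genes are named after their values were seen. Foxn1, the nude gene, differed by -1.96, Hoxc13, an activator of hair keratin genes, by -1.19, Sox9, a factor of the outer sheath and stem cells, by -1.35 and -1.07, and Lgr5, a stem cell receptor, by -1.57. In contrast Shh, the signal of the hair matrix, was higher by 2.03 and its receptor Ptch1 by 2.18 on one probe set and by 0.42, without passing, on the other. For both the control arrays were the lowest of all 8. Cux1 had probe sets on both sides: of its 6, 2 were higher, by 2.15 and 1.46, and 2 lower, by -1.12 and -1.01.

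**Figure D2:**
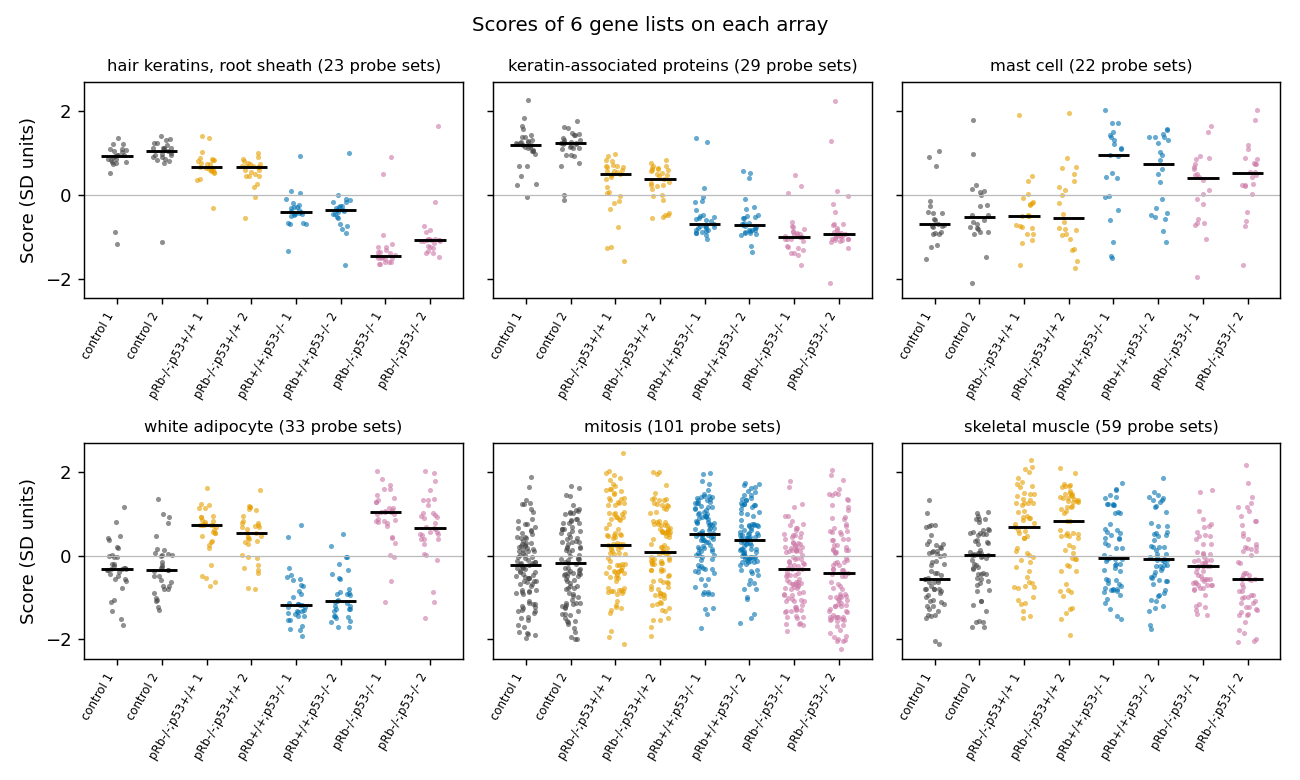
Scores of every probe set of 6 gene lists on each of the 8 arrays (vertical axis, SD units; small points are probe sets and black bars their median). The medians of the hair lists lie between 0.93 and 1.23 on the control arrays and between -0.71 and -0.37 on the p53-deficient arrays, mast cell medians are -0.70 and -0.54 against 0.94 and 0.72, and white adipocyte medians are -0.32 and -0.35 against -1.18 and -1.09.

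Mast cell genes were higher. Mast cells are resident immune cells of the dermis whose granules hold tryptases, chymases, carboxypeptidase and histamine. Of 22 probe sets for 17 genes, 10 were higher and 0 lower, with a median of 1.52, and for 8 of the 10 the p53-deficient arrays were the highest of all 8. None had an adjusted p under 0.05.

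Tpsab1, a tryptase, scored -0.91 and -0.88 in control skin and 1.43 and 1.54 in p53-deficient skin, a difference of 2.38 ± 0.18 (adjusted p = 0.074). Cma1, the chymase, scored -0.61 and -0.66 against 1.10 and 1.38 (difference 1.88 ± 0.16, adjusted p = 0.081). Srgn, the serglycin core protein of the granules, scored -0.92 and -0.80 against 0.96 and 1.24 (difference 1.96 ± 0.16, adjusted p = 0.081). The groups were far apart in all 3 genes.

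Tpsb2, a second tryptase, differed by 2.18 ± 0.20 on one probe set and by 0.51 ± 1.03 on the other. Hdc, which makes histamine, was higher on both of its probe sets, by 1.83 and 1.90. Cpa3, Mcpt4, Kit and Mitf were higher on 1 probe set each, by 2.16, 2.17, 2.12 and 1.82; the first 2 are granule proteases, and the last 2, the receptor for stem cell factor and a transcription factor, also serve melanocytes. The members that did not pass include Mcpt8, Mcpt1, Mcpt2, Fcer1a and Ms4a2, with differences of -1.79, -1.10, -0.94, -0.64 and 0.13. Mcpt8 marks basophils, Mcpt1 and Mcpt2 mucosal mast cells, and Fcer1a and Ms4a2 encode the IgE receptor.

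White fat genes were lower. Of 33 probe sets for 20 genes, 14 were lower and 1 higher, with a median of -0.78, and for all of these 14 the p53-deficient arrays were the lowest of all 8. Adipoq, the hormone adiponectin, scored -0.19 and 0.02 in control skin and -1.39 and -1.56 without p53, a difference of -1.38 ± 0.18 (limma adjusted p = 0.107). Cidec, a lipid droplet protein, scored -0.35 and -0.35 against -1.45 and -1.28 (difference -1.02 ± 0.13), and Plin4, another, 0.01 and -0.02 against -1.69 and -1.33 (difference -1.51 ± 0.21). Slc2a4, the insulin-dependent glucose transporter of fat and muscle, was the higher one, at 1.92 on 1 of 2 probe sets. Lep, the satiety hormone, and Plin2 differed by -1.56 and -2.07 and are named after their values were seen.

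The count of lower fat probe sets was 8 to 14 when single arrays were left out, lowest without the second p53-deficient array, and 3 with the moderated statistic. The 21 probe sets of the brown fat list had 2 higher and 1 lower, with a median of -0.45 and 12 differences below 0. Ucp1, the uncoupling protein that makes heat, scored -0.78 and -0.74 in control skin and 0.53 and 0.59 in p53-deficient skin, a difference of 1.32 ± 0.09 (adjusted p = 0.068), and is one of the higher ones.

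Skeletal muscle genes moved both ways. Of 59 probe sets for 42 genes, 18 were higher and 6 lower, with a median of 0.36. Tnnc1, the troponin C of slow and cardiac muscle, scored 0.20 and 0.28 in control and 1.39 and 1.33 in p53-deficient skin and rose by 1.12 ± 0.05 (adjusted p = 0.0386), with the p53-deficient arrays highest of all 8. Myl4, the embryonic and atrial light chain, scored -0.42 and -0.43 against 1.20 and 1.39 (difference 1.72 ± 0.19) on one probe set, and differed by -0.49 ± 1.20 on its other. Myh1, an adult fast myosin, scored 0.48 and 0.33 against -1.03 and -1.25 on one of 3 probe sets (difference -1.55 ± 0.11), and differed by -1.30 and -0.21 on the others without passing.

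Further muscle genes are named after their values were seen. Tnni1, Tnnt2, Myog and Chrna1, which encode slow troponin I, the cardiac and embryonic troponin T, myogenin and the acetylcholine receptor alpha subunit, were higher by 1.33, 1.73, 1.70 and 1.79, with the p53-deficient arrays highest. Tnnt2 has a second probe set that did not pass (1.28). Actn3 and Mb, the fast-fibre actinin and myoglobin, were lower by -0.91 and, on 1 of 2 probe sets, -1.46. For Tcap, Ckm and Acta1, higher by 2.39, 1.39 and 1.40, the control arrays were the lowest of all 8 and the p53-deficient arrays were not the highest. Leaving out single arrays gave 10 to 15 higher muscle probe sets, 11 and 10 without the first and second p53-deficient array, and the moderated statistic gave 9. How much muscle each skin sample carried was not tested.

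Genes of mitosis and the G2 phase were more often higher. Of 101 probe sets for 55 genes, 17 were higher and 0 lower, with a median of 0.48. Ncapd2, a condensin subunit, scored -0.52 and -0.62 in control skin and 1.78 and 1.31 without p53, a difference of 2.12 ± 0.22 (adjusted p = 0.089). Kif20a, a kinesin of cytokinesis, scored -1.33 and -1.19 against 1.56 and 0.84 (difference 2.46 ± 0.28). Racgap1, which places the cleavage furrow, was higher on both of its probe sets, by 2.44 and 2.14, and Kif11, the spindle motor, on 1 of 3, by 2.38.

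The count of higher mitosis probe sets was 8 to 19 when single arrays were left out, 8 without either p53-deficient array and 11 without the second control array, and none had an adjusted p under 0.05. The widely used proliferation markers Mki67 and Top2a, named after their values were seen, did not share the direction: Mki67 differed by -0.60 and Top2a by -0.51 and -0.49, none of which passed. DNA replication genes had 8 higher (9.41%) and 2 lower (2.35%) of 85 probe sets, with a median of 0.39. The higher share was near the 7.32% of all probe sets, and the lower share was below their 7.24%. The higher count was 4 without the first p53-deficient array and 5 without the first control array. Rfc3, a clamp loader subunit, was higher on both probe sets, by 2.42 and 2.27. Mybl2, a cell cycle transcription factor, was lower on 1 of 2 probe sets, by -1.92.

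Many mitosis genes carry a CHR element, TTTGAA, through which p53 and pRb family complexes are known to repress them. It is shown in the promoter of Ncapd2, which had the smallest p of the list, at chr6:125191537-125191836 on the minus strand of GRCm38.p6, with TTTGAA in capitals at position -123.
Ncapd2: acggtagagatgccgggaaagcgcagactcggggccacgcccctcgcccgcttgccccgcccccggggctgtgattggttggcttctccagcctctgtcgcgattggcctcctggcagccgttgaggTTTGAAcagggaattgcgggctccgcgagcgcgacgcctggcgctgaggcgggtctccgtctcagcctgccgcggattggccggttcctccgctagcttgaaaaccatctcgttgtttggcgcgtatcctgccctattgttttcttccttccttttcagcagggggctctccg

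TTTGAA was found on either strand in 36 of 51 promoters of the mitosis list (70.6%), 6 of 45 of the replication list (13.3%) and 18.1% of all 27025. The element overlaps CTTTGA where a C precedes it. The letters describe the lists and bear on no single difference above.

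Direct p53 target genes lay on both sides. Of 28 probe sets for 19 core targets, 2 were higher (7.14%) and 5 lower (17.9%) at p under 0.05 before adjustment, with a median of 0.25. Over all probe sets the shares were 7.32% and 7.24%. In 4 of the 5 lower the p53-deficient arrays were the lowest of all 8, and in 1 of the 2 higher the highest. The 5 lower became 3 without the first control array or either pRb-deficient array, 2 without the second control or first p53-deficient array and 1 without the second p53-deficient array. The arrays of both groups are shown for every one in the plot of p53 target genes. Cdkn1a, the cyclin-dependent kinase inhibitor p21, scored 1.07 and 1.12 in control skin and -1.72 and -0.98 without p53 on one probe set, a difference of -2.45 ± 0.29 (limma adjusted p = 0.100). The control arrays were the highest and the p53-deficient arrays the lowest of all 8. Its other probe set scored -0.55 and -1.09 against -0.61 and -0.55 (difference 0.24 ± 0.21), so the probe sets disagree.

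Btg2, an antiproliferative protein, was lower on both of its probe sets. They scored 0.00 and 0.79 in control skin against -1.46 and -1.41, and 0.27 and 0.34 against -1.39 and -1.43, with differences of -1.83 ± 0.57 and -1.72 ± 0.45. Sfn, the 14-3-3 sigma protein of differentiating epidermis, scored 0.25 and 1.65 against -1.15 and -1.06 (difference -2.05 ± 0.53). Perp, a desmosome protein of stratified epithelia, scored 1.37 and 0.93 against -1.48 and -0.51 (difference -2.14 ± 0.75). In these 3 genes no array of one group reached the other group, as in 28.9% of all probe sets for lower and 23.8% for higher values.

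Ccng1, cyclin G1, went the other way on 1 of its 3 probe sets, scoring -1.24 and -1.81 in control skin and 1.06 and 0.26 in p53-deficient skin (difference 2.18 ± 0.38), with 1.35 and -0.09 on the others. Sesn1, a stress sensor, was higher on 1 of 3 probe sets by 1.78 ± 0.64, with 1.45 and 0.60 on the others. Mdm2, the ligase that degrades p53, differed by 0.52 ± 1.25 and 0.97 ± 0.97 on its probe sets and did not pass. The pro-apoptotic Bbc3, Pmaip1 and Fas differed by -1.15, -0.36 and -0.80, and the growth arrest and repair genes Gadd45a, Zmat3, Phlda3, Ei24, Gtse1, Plk2 and Ddit4 by 0.04, -1.39, 0.27, -0.23, 0.92, 0.32 and 0.83; none of these passed. Ddb2 differed by 0.94 and 1.15 and Sesn2 by 1.07 and -1.18.

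In the wider list of 62 target probe sets 5 were higher (8.06%) and 9 lower (14.5%), with a median of -0.26, on the other side of 0 from the core list. The lower count was 3 without either p53-deficient array and 4 without the second control array. Casp6, an effector caspase, scored -1.08 and -1.32 in control skin and 1.30 and 1.36 in p53-deficient skin, a difference of 2.53 ± 0.22 (adjusted p = 0.082). Dram1, a lysosomal protein, differed by -0.78 ± 0.14. The 2 genes lay on opposite sides, with no overlap between groups in either.

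**Figure D3:**
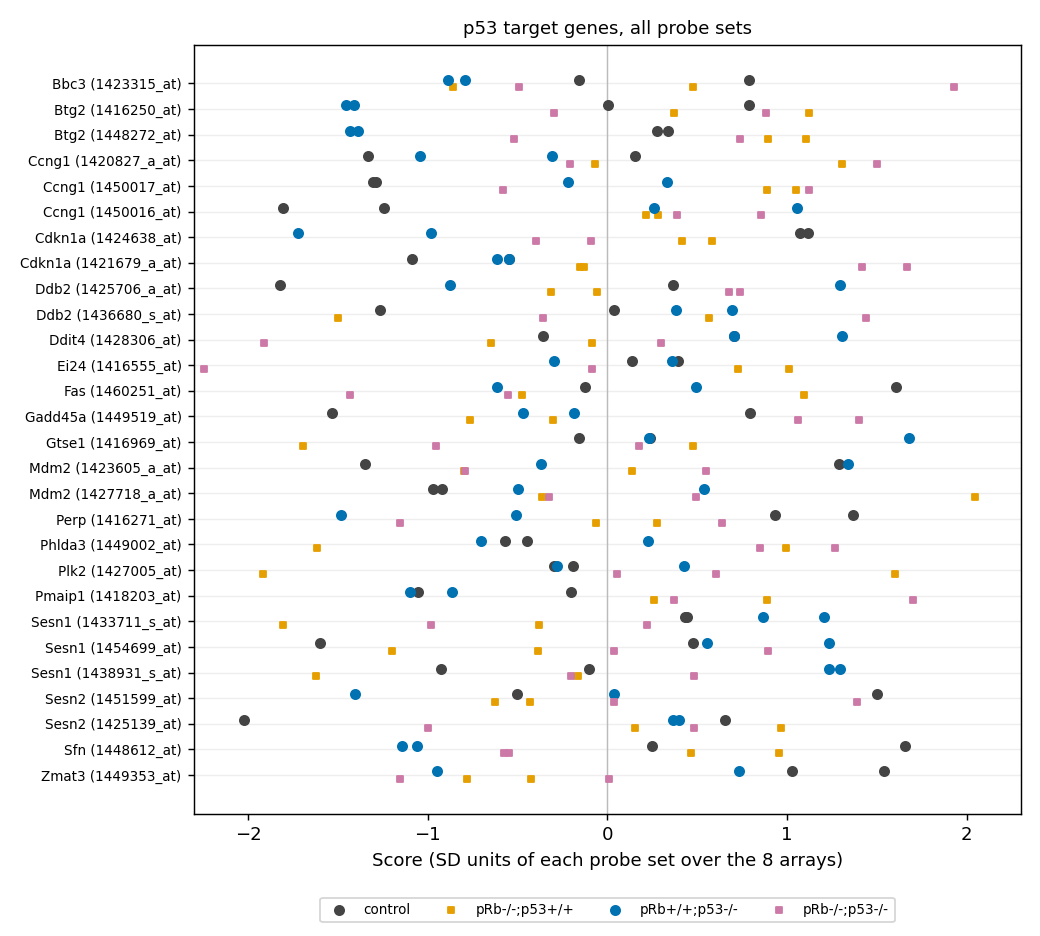
Scores of all 28 probe sets of 19 p53 target genes on the 8 arrays (horizontal axis, SD units; 1 point per array). Control (dark) and p53-deficient (blue) points are apart in 8 probe sets with higher and 7 with lower p53-deficient scores. Among all probe sets of the array they are apart in 23.8% with higher and 28.9% with lower scores, so these counts are near those shares. The lower ones include Btg2, Sfn, Perp and 1 of 2 Cdkn1a probe sets. The higher ones include a Ccng1 probe set and 1 of 2 Mdm2 probe sets. In the rest, such as Gadd45a, the points of the groups overlap.

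Epidermal genes were lower in part. The skin label could not be checked against keratinocyte markers such as Krt5, Krt14, Krt1, Krt10 and Trp63, because scores carry no level. Slurp1, a secreted protein of cornifying keratinocytes, scored 0.37 and 0.26 in control and -1.46 and -1.61 in p53-deficient skin and fell by 1.85 (adjusted p = 0.0240). Gjb6, connexin 30 of the gap junctions, scored 0.66 and 0.63 against -1.25 and -1.51 and fell by 2.03 (adjusted p = 0.0386). In both the p53-deficient arrays were the lowest of all 8.

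Of 38 suprabasal and cornified probe sets 9 were lower and 3 higher (median -0.49), of 39 junction probe sets 9 lower and 5 higher (median -0.48), and of 40 barrier lipid probe sets 11 lower and 3 higher (median -0.71). Of 52 basal probe sets 9 were lower and 7 higher (median -0.04), but 1 was lower without the second control array or the first p53-deficient array and 5 without the second. Elovl6, a fatty acid elongase, was lower on both probe sets, by -1.06 and -1.13, and Fads2, a desaturase, higher on both, by 2.08 and 1.71. Krt6a, a keratin of stressed and follicular epithelium, was lower on all 3 of its probe sets, by -2.34, -2.44 and -2.14. Fzd6, a Wnt and planar polarity receptor that orients hair, scored 1.64 and 1.58 against -0.32 and -0.56 and fell by 2.05 (adjusted p = 0.0463), with -0.56 on its other probe set, which did not pass. Leaving out single arrays gave 3 to 8 lower suprabasal probe sets and 5 to 13 lower lipid probe sets; the suprabasal count was 3 and 4 without the first and second p53-deficient array and 6 without the first control array, and the lipid count was 5 without either p53-deficient array or the second control array.

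The remaining called genes belong to no single group. Cap1, an actin regulator, fell on both of its probe sets, from 0.61 and 0.73 to -1.67 and -1.48 (difference -2.24 ± 0.10, adjusted p = 0.0302) and from 0.46 and 0.57 to -1.62 and -1.54 (difference -2.09 ± 0.07, adjusted p = 0.0217), with the p53-deficient arrays lowest of all 8. Mbp, myelin basic protein, fell by 2.43 on one probe set, from 1.33 and 1.51 to -0.99 and -1.02 (adjusted p = 0.0228). Of 35 Schwann cell and nerve probe sets 8 were lower (22.9%, against 7.24% of all probe sets) and 0 higher. Of these 8, 5 were probe sets of Mbp. The remaining Mbp probe sets differed by 0.57, -0.85 and -0.47 and did not pass.

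Marcks, an actin-linking kinase substrate, and Ints6l, a subunit of the Integrator family, fell by 1.10 and 2.22. Of the risers, Fscn1, the actin bundler fascin, went from -1.47 and -1.44 to 1.08 and 1.03 (difference 2.51 ± 0.09, adjusted p = 0.0224). Rxylt1, a glycosyltransferase of dystroglycan, went from -0.26 and -0.36 to 1.56 and 1.53 (difference 1.85 ± 0.07, adjusted p = 0.0224). Fam107b, Eif4h, Rbbp4, Dnajb1 and Ptprf rose by 2.51, 2.37, 2.20, 2.19 and 1.76 on 1 probe set each. Other probe sets disagreed for several of these genes: 1 of Rbbp4 was lower by -1.64, 1 of Dnajb1 by -1.35 and 1 of Ptprf by -1.05, while another of Ptprf was higher by 1.77 and another of Fam107b by 1.97. The other probe sets of Eif4h differed by 0.39 and -0.25, and those of Fscn1 by 1.66, 1.57 and -0.58, of which only the first was higher at that bound. The other 5 probe sets of Marcks lay between -1.51 and 0.76 and did not pass. For Rbbp4, Dnajb1 and Ptprf the control arrays were lowest of all 8 while the p53-deficient arrays were not highest.

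Genes with several probe sets were also read across them, on the same arrays, so this is no separate check of the comparison. Of 4956 genes with 2 or more probe sets, 46 had all of them higher and 45 all of them lower at p under 0.05 before adjustment, and 23 had all past that bound but in different directions. Over all probe sets 14.6% passed that bound in either direction. The number of such genes expected with no change was not determined, and those named here were picked by that bound. Clu, clusterin, a secreted chaperone, was lower on all 4 probe sets, by -2.27, -2.56, -2.50 and -2.54, with the p53-deficient arrays lowest of all 8 in each. Hopx, a homeodomain protein of hair stem cells and differentiating epidermis, was lower on both, by -2.31 and -1.40. Adgrg1, an adhesion receptor, was lower on both, by -1.26 and -1.51.

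On the higher side, Glo1, the glyoxalase that detoxifies methylglyoxal, was higher on all 3 probe sets, by 1.79, 2.28 and 1.89. Tnfrsf19, the receptor Troy found in hair stem cells, was higher on all 3, by 2.46, 2.04 and 1.54. In 5 of these 6 probe sets the p53-deficient arrays were the highest while the control arrays were not the lowest. Pdk1, which restrains pyruvate entry into mitochondria, was higher by 1.85 and 2.20, and Serpinb1a, a protease inhibitor, by 2.25 and 1.90.

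Immune lists other than mast cells are given beside the shares over all probe sets, 7.32% higher and 7.24% lower. Of 43 macrophage probe sets 4 were higher (9.30%) and 5 lower (11.6%), and of 39 interferon probe sets 3 and 3 (7.69% each). Of 18 antigen presentation probe sets 1 and 0 were, and of 31 lymphocyte probe sets 0 and 2. The p53-deficient arrays were the lowest of all 8 in 11 interferon probe sets and the highest in 0, against 7.8% and 6.01% of all probe sets. The lymphocyte median was -0.74, against -0.16 over all probe sets. Ccl9, a chemokine, was lower on both probe sets, by -1.07 and -1.23. Fibroblast and matrix genes had 10 higher and 5 lower of 51, with 3 higher without the second control array, 5 without the first p53-deficient array and 6 without the first control array. Counts for the others were endothelial genes 3 and 1 of 23, melanocyte genes 2 and 1 of 22, red cell genes 1 and 1 of 19, and sebaceous genes 0 and 2 of 12.

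Some probe sets of sex-linked transcripts differed. Xist, which silences one X chromosome of female cells, was higher by 2.29 and 0.98 on 2 of 3 probe sets in p53-deficient skin, and the Y-linked Uty, Eif2s3y and Kdm5d were lower by -1.27, -1.86 and -1.46 on 1 probe set each. These 3 lower probe sets became 0 without the first control array or either pRb-deficient array and 1 with the moderated statistic. The sexes of the pooled pups are not given, and the part of pool composition in the other differences was not tested. Respiratory chain genes had 17 lower (17.7%) and 4 higher (4.17%) of 96 probe sets. Their lower count was 5 without the second control array, 10 without the first, and 7 and 10 without the first and second p53-deficient array. Ribosomal protein genes had 8 lower (8.89%) and 1 higher (1.11%) of 90. Their lower share was near the 7.24% of all probe sets, of which 7.32% were higher. The ribosomal lower count was 15 without the first control array and 5 without the first p53-deficient array.

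p53 loss can be read a second time where pRb was also absent, from the means of 4 other arrays. The comparisons are not independent, because all 8 arrays give the estimate of the spread for each probe set, which both p-values use, and a low estimate favours passing in both. There, 34 probe sets rose (0.15%) and 58 fell (0.256%) at an adjusted p under 0.05 by limma's ordinary statistic, and 0 by the moderated one. At p under 0.05 before adjustment the ordinary counts were 1749 (7.73%) and 2457 (10.9%). Over all 22626 probe sets the 2 sets of differences correlated at r = 0.27, a description over genes, which are not independent, of scores standardized across the same 8 arrays. Both comparisons passed a p of 0.05 before adjustment in 1416 probe sets, and in 1202 of these (5.31% of all) the direction was the same: 467 were higher in both (2.06% of all) and 735 lower in both (3.25%). The count expected with no change was not determined. Of the probe sets lower in the first comparison 44.9% were also lower in the second, and of those higher 28.2% were also higher.

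Hair genes were lower in both. Of the 23 hair keratin and root sheath probe sets 21 were lower in both comparisons, with medians of -1.46 and -1.93, and of the 29 keratin-associated probe sets 22 were, with medians of -1.80 and -1.46. Krtap16-3, whose promoter is printed above, differed by -1.48 and -1.69 in the second comparison, and Krtap6-5 by -1.81. Mast cell genes were higher in both: 8 of 22 probe sets, with medians of 1.52 and 0.98. Srgn differed by 1.72, Cma1 by 1.62 and Hdc by 1.83 and 1.34 in the second comparison. Ucp1 was higher by 2.27 there and S100a8, a calprotectin subunit of neutrophils and stressed epidermis, by 2.31, against 0.98 in the first.

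**Figure D4:**
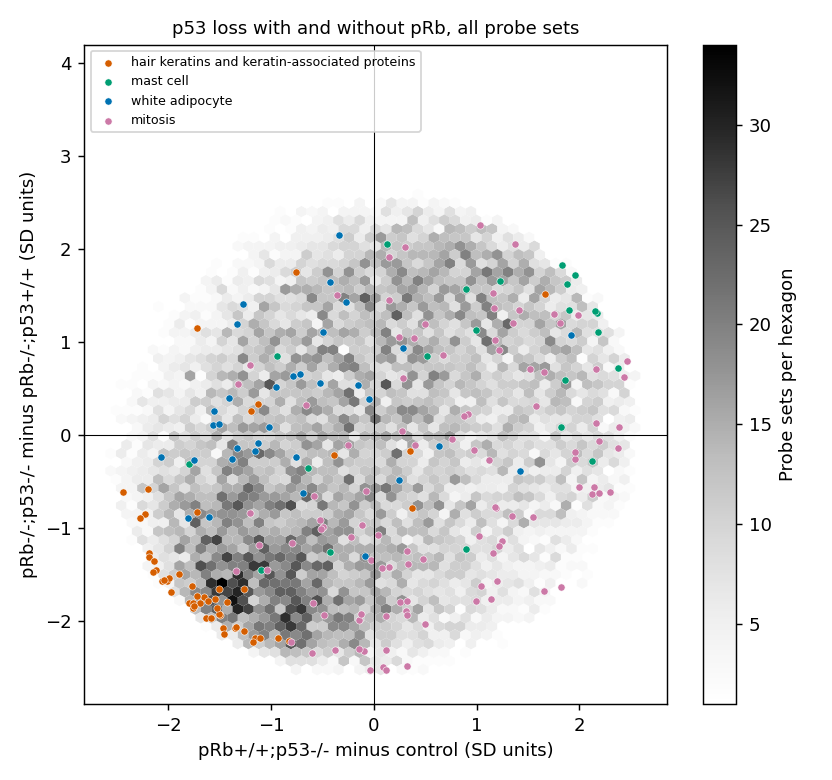
Difference of every probe set in p53-deficient minus control skin (horizontal axis) against doubly deficient minus pRb-deficient skin (vertical axis), both in SD units; grey hexagons count all 22626 probe sets and coloured points are 4 gene groups. Hair genes gather at the lower left, most mast cell genes at the upper right, mitosis genes spread to the lower right and white adipocyte genes to the left near 0.

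The interaction, which tests whether the p53 difference depends on pRb, gave 0 probe sets at an adjusted p under 0.05 with limma's ordinary or moderated statistic, and 1012 positive (4.47%) and 1352 negative (5.98%) at p under 0.05 before adjustment, 10.4% in all, or 984 and 1251 with the moderated one. White fat genes had 13 of 33 probe sets positive and 0 negative: their median was -0.78 with pRb present and 0.12 with pRb absent. Keratin-associated proteins had 11 of 29 positive and 0 negative, with medians of -1.80 and -1.46. Hair keratins and root sheath genes went the other way, with 5 of 23 negative and 0 positive and medians of -1.46 and -1.93. Mast cell genes had 4 of 22 negative and 0 positive, with medians of 1.52 and 0.98. Mitosis genes had 21 of 101 negative and 1 positive, with medians of 0.48 and -0.78. Muscle genes had 18 of 59 negative and 1 positive, with medians of 0.36 and -1.34, and macrophage genes 13 of 43 positive and 0 negative, with medians of 0.02 and 1.50.

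Among single probe sets, Usp19, a ubiquitin protease, differed by -1.02 with pRb present and by 1.64 with pRb absent. Bbox1, the last enzyme of carnitine synthesis, differed by -0.65 and 2.20, and Agpat5, a lipid acyltransferase, by -0.75 and 2.49. Hhip, a hedgehog antagonist, differed by 0.92 and -2.14, and Fscn1 by 2.51 and -0.58. Slurp1 differed by -1.85 and 0.76. These 6 had among the smallest interaction p-values, and none passed after adjustment.

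**Figure D5:**
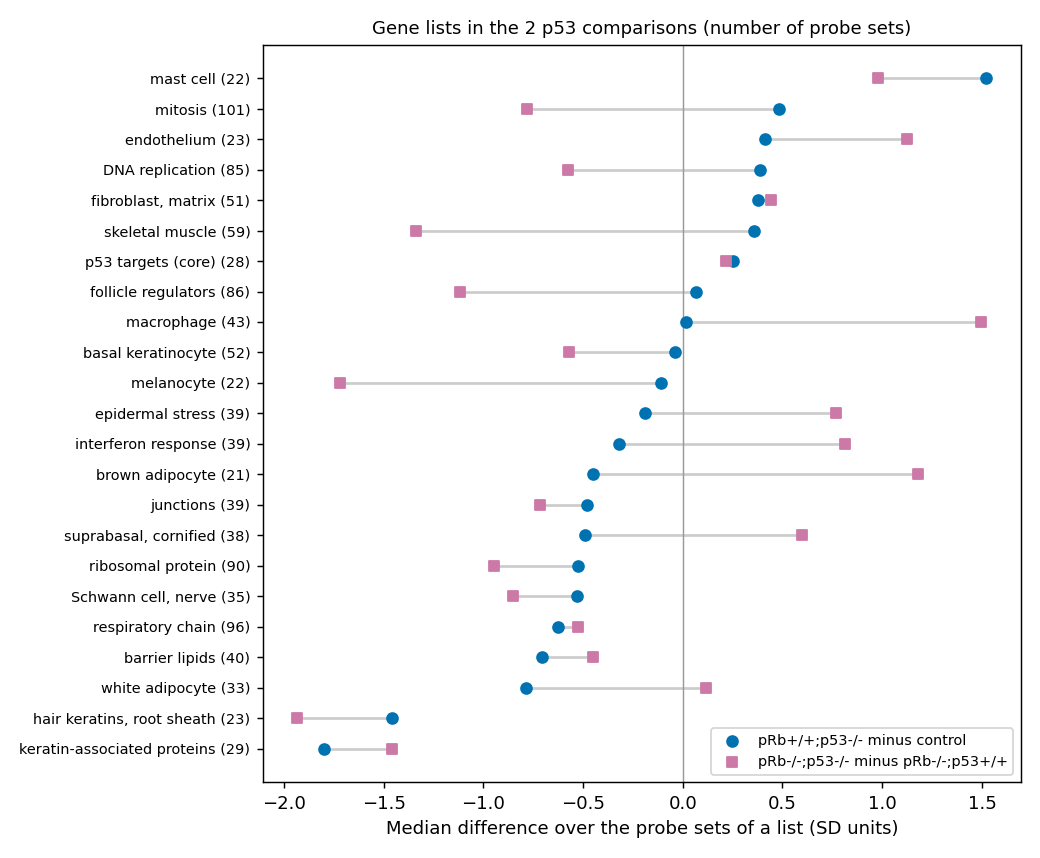
Median difference over the probe sets of 23 gene lists in the 2 p53 comparisons (horizontal axis, SD units; circles with pRb present, squares with pRb absent, number of probe sets in brackets). Hair lists lie far left in both, with melanocyte genes (-1.72) between them where pRb is absent. Mast cell genes lie furthest right with pRb present (1.52). With pRb absent (0.98) macrophage (1.50), brown adipocyte (1.18) and endothelium (1.13) medians lie beyond them. Medians change sign for mitosis, DNA replication, muscle, white and brown adipocyte, suprabasal, epidermal stress, interferon and follicle regulator lists.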

How the data were processed

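The 8 arrays carry whole-skin RNA, pooled from 3 pups each. The submitters' processing notes name RMA, with no version; per the deposited table the values are scores, and a check of all 22690 rows found mean 0 and SD 1 (within 1e-06) over the 8 arrays, so levels, background and depth cannot be recovered and the number of arrays limits the precision. Probe sets were named from the platform annotation given with the series: 20380 had 1 symbol, 691 several and 1555 none, and 64 control probe sets were left out of the tests. Groups follow the sample titles. limma 3.58.1 (R 4.3.3) fitted 1 mean per genotype to all 8 arrays, with the ordinary statistic because rows share one scale, and Benjamini-Hochberg adjustment over 22626 probe sets. An exact permutation test of 2 arrays against 2 cannot go below 0.333. The fit was tested on simulated data of the same size, where the ordinary statistic called all of the largest changes, few of the smallest and a few unchanged probe sets, and the moderated one called none.

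Members and gene lists were chosen with earlier results of these data known. Lists are described by counts and medians. Named were up to 15 called probe sets a direction, up to 10 genes a direction with all probe sets at an unadjusted p under 0.05, up to 10 a direction shared by both p53 comparisons, up to 4 genes of each of 35 lists, all core p53 targets and up to 5 a direction for the interaction; others are said to be chosen after their values were seen. Same-numbered arrays were not paired (correlations of their deviations -0.16 to 0.20). Alternatives were the moderated statistic, only the arrays compared, a replicate block, quantile normalization, array medians at 0, 1 probe set or the mean per gene, and leaving out each array. Promoter sequences are from RefSeq (GRCm38.p6), and those of 1 chromosome were left out of the motif counts.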

Additional observations from a re-analysis of the deposited data

Results flagged for a closer look

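The 64 control probe sets of the array, which take no part in the comparison, differed between the groups: 18 were higher in p53-deficient than in control skin at an unadjusted p under 0.05 (28.1%, against 7.32% of the tested probe sets) and 2 were lower. Their median score was -0.69 and -0.51 on the control arrays, -0.09 and 0.45 on the p53-deficient arrays and between 0.12 and 0.40 on the other 4. The mouse Gapdh control probe sets differed by 2.00 at the 5′ end, 1.88 in the middle and 1.25 at the 3′ end, and those of beta-actin by 1.62, 1.78 and 0.81, while those of the transferrin receptor ran the other way along the transcript, at 1.37, 2.21 and 2.37. Control probe sets that are not for mouse genes were among the higher ones. The 5′ probe sets of PheX, LysX and DapX differed by 2.45, 2.01 and 1.75, and their 3′ probe sets by -1.27, 0.92 and 0.01. The part of the control probe sets in the differences of other genes was not tested.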

How the results depend on the processing

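Scores allow differences between arrays but no level, and 2 arrays a group leave few degrees of freedom. In p53-deficient against control skin, the 8 higher and 19 lower adjusted calls became 0 and 0 with the moderated statistic, with only the arrays compared and with quantile normalization, 4 and 4 with array medians at 0, 4 and 13 with 1 probe set per gene, and 3 and 12 with gene means; leaving out single arrays gave 0 to 1 and 0 to 4. In doubly deficient against pRb-deficient skin, 34 and 58 became 0 and 0 with the moderated statistic and with only the arrays compared, 1 and 0 with quantile normalization, 21 and 51 with gene means, and 0 to 1 and 0 to 5 without single arrays. The interaction gave 0 higher and 0 to 1 lower without single arrays. A replicate block, which the pairing check did not bear out, gave 0 calls in either comparison, with 1503 higher and 1434 lower before adjustment at p under 0.05 in the first. Whether the 0 of the moderated statistic bears on the stability of the calls was not determined. The causes were not tested.

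Of 3090 recomputed values for 206 named probe sets, 2758 kept direction and side of the threshold, 305 lost the adjusted call, 3 gained it and 24 turned direction. Only the called probe sets could lose a call, and most of their recomputed values did. Most of the 2758 belong to probe sets that had no adjusted call to lose. With 1 probe set per gene, the one retained turned Scd2 to -0.71, Marcks to 0.76, Ccnd2 to -0.031, Dnajb1 to -1.35, Mcl1 to -1.62, Eln to 0.44, Cux1 to -1.49, Sh3kbp1 to -0.67, Bmp7 to -0.063, Cdh5 to 1.57, Pkp2 to 0.30, Trp63 to -0.40 and Uqcrb to -1.38. Gene means turned Dnajb1 to 0.42, Mcl1 to -0.59, Ncam1 to 0.024, Cdh5 to -0.16, Cux1 to -0.11, Ccnd2 to 0.075 and Bmp7 to 0.40. Of 35 list medians, 9 changed sign under an alternative, among them follicle regulators (to -0.08 without the first p53-deficient array) and p53 core targets (to -0.09 without the second control array); those of hair, mast cell, white fat, mitosis and muscle genes did not.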
